A study of Danio rerio with 13 samples.

Results

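The early RNA response of ZF4 cells to cold was examined by comparing cells that had spent 5 days in the cold, at 18°C (written 18°C /5d), with cells kept at 28°C. ZF4 is an established fibroblast line derived from zebrafish embryos. The comparison took the 6 RNA libraries of these conditions, out of 9 RNA libraries and 13 samples in the series, and covered all 32677 genes of the deposited table, of which 19622 had enough reads to be tested. Cells of both conditions grew in the same serum-containing medium, and those of the cold condition were transferred to an incubator at 18°C after seeding. Each condition had 3 libraries that the labels describe as biological replicates, and the hour and the order of their collection are not given in the sources used here. All libraries came from a single cell line in culture, which bounds how far they stand for a fish. A further 3 libraries from cells kept at 18°C for 30 days (18°C /30d) helped to estimate the spread between replicates.

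Zebrafish are ectotherms, so a drop in water temperature slows every enzyme in their cells and stiffens their membranes. Cultured fish cells placed in the cold are known to slow their growth at first and to adjust translation, protein folding and membrane lipids. The paper on these cells proposes that folate synthesis and DNA methylation might be linked in the cold. Its grounds were lower methylation at folate biosynthesis genes after 5 days, raised RNA of gch1 and gch2, and higher global methylation. One-carbon metabolism is the set of reactions that carries methyl and formyl groups on folate. It feeds S-adenosylmethionine, the methyl donor of DNA and histone methylation. RNA-binding proteins of the CIRBP type, heat shock chaperones and the genes of the circadian clock are among the classes known to respond to temperature in vertebrates.

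The total counts of the 6 libraries lay between 22269276 and 42137732. The libraries with replicate number 3 stood apart in all conditions. They were the shallowest of the 6, with 22504969 counts at 18°C /5d and 22269276 at 28°C, their 10 most abundant genes took 16% of the counts at 18°C /5d and 15.1% at 28°C against 4.99% to 5.57% in the 4 other libraries, and the first principal component, with 45.9% of the variance, separated them from replicates 1 and 2. The libraries of replicate 3 deviated together from the means of their conditions, while replicates 1 and 2 were less clearly paired. The replicate number was kept as a block in the test. The 28°C library of replicate 3 stood apart a second time. Levels are given as CPM, the library-scaled read count. The summed level of 48 genes for cyclins, cell-cycle kinases and mitotic proteins was 2166, 2249 and 1948 CPM at 18°C /5d, against 3511, 3288 and 482 CPM at 28°C. The 28 sterol synthesis genes summed to 3594, 3542 and 2328 CPM at 18°C /5d, against 6489, 5065 and 1059 CPM at 28°C. In both lists the first 2 pairs were lower in the cold and the third pair was higher, and the 28°C library of replicate 3 was the lowest of the 6, so most lists are given with their pair medians or with their median without this library, or with both. Whether fewer cells of a kind or less RNA per cell lies behind a level cannot be told apart in bulk RNA.

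**Figure D1:**
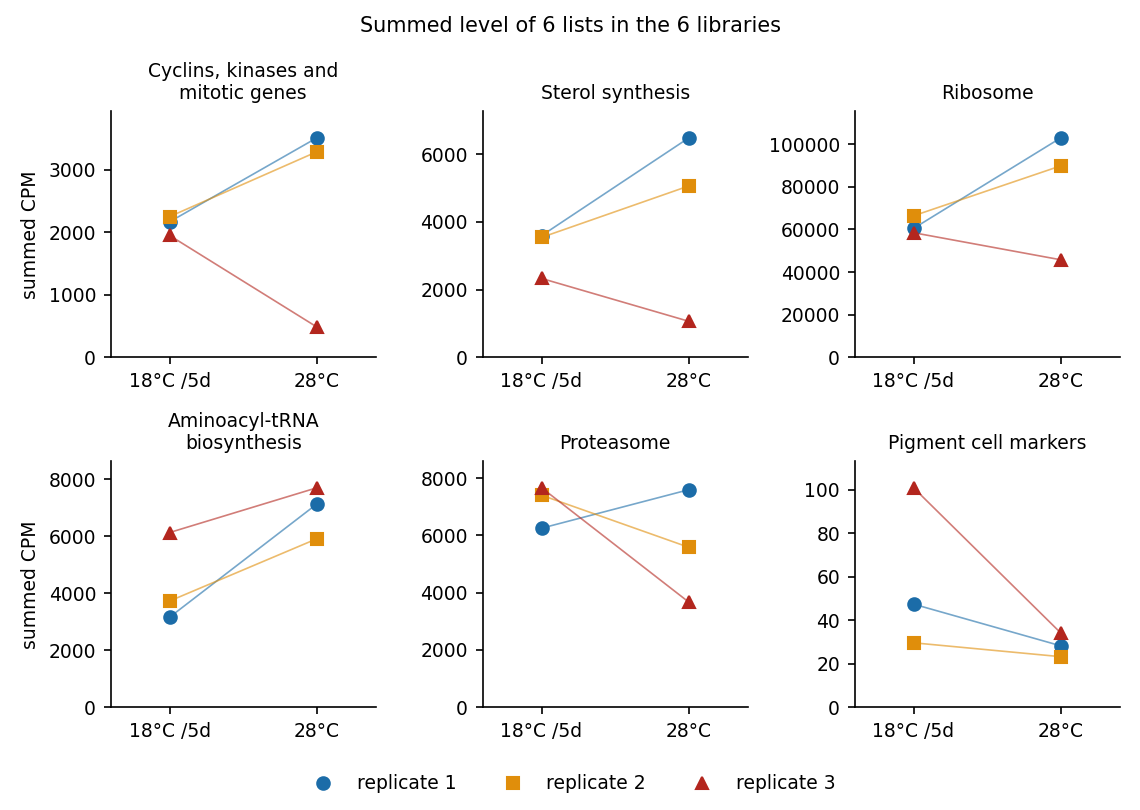
Summed CPM (vertical axes, starting at 0) of 6 gene lists in the 3 libraries at 18°C /5d (left) and the 3 at 28°C (right), with lines joining the same replicate number. For cyclins and mitotic genes the 28°C library of replicate 3 lies at 482 CPM, below the 5 other libraries, which lie between 1948 and 3511 CPM.

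The fibroblast label was checked on marker genes. The 15 fibroblast markers summed to 6586, 6126 and 7391 CPM at 18°C /5d and to 9982, 7796 and 11478 CPM at 28°C, carried mainly by the type I collagen genes. The intermediate filament gene vim, a common fibroblast marker, stayed at 0.862 to 2.38 CPM at 18°C /5d and 1.41 to 2.08 CPM at 28°C, while the keratin gene krt8 had 1133 to 1498 CPM at 18°C /5d and 1218 to 1857 CPM at 28°C. The muscle determination gene myod1 reached 71.6 CPM in a library at 18°C /5d and 59.5 CPM in a library at 28°C. The 13 epithelial markers summed to 3585 to 5342 CPM at 18°C /5d and to 3961 to 5426 CPM at 28°C. Muscle markers summed to at most 108 CPM at 18°C /5d and 82 CPM at 28°C, endothelial markers to 96.5 CPM at 18°C /5d and 85.5 CPM at 28°C, neural markers to 58.6 CPM at 18°C /5d and 89.9 CPM at 28°C, and blood markers to 25.1 CPM at 18°C /5d and 20.8 CPM at 28°C. The ranges of the 2 conditions overlapped in these 5 lists. Single markers of epithelium (epcam), endothelium (cdh5) and the neural crest (sox10) were at or near 0 in every library. The epithelial sum and krt8 were high and vim was low, so these markers do not settle the fibroblast label. No gene of the 7 marker lists passed the adjusted threshold between the conditions. The 12 pigment cell markers summed to 47.4, 29.6 and 101 CPM at 18°C /5d, against 28.2, 23.2 and 34.1 CPM at 28°C. These sums overlapped between the conditions. Of the 9 tested, 6 were higher and 0 lower without overlap between the conditions, and DESeq2 called 3 higher. Over all tested genes, 9.27% were higher and 8.35% lower without overlap, and DESeq2 called 3.63% higher. Their median log2 fold change was 1.14, and 0.76 to 1.38 when 1 library was left out. The pair medians were 0.41, 0.45 and 0.45, so the rise was not limited to 1 replicate. Much of the replicate 3 sum came from oca2, a melanosome transporter, with 2.11, 7.16 and 65.4 CPM at 18°C /5d against 0.935, 0.85 and 1.79 CPM at 28°C (log2 fold change 3.15, edgeR adjusted p = 0.0879), whereas mitfa and tyr, which define melanocytes, were near 0. The part of such markers in the results was not tested.

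After 5 days at 18°C, 51 genes passed an adjusted p under 0.05 in edgeR's quasi-likelihood test, 25 of them higher (0.127% of the genes tested) and 26 lower (0.133%) than at 28°C, together 0.26%. Their changes were 2.5-fold to 39.9-fold, went the same way in the 3 replicate pairs for each of the 51 genes, and left no overlap between the 6 libraries for 48 of them (all but cacng5a, apcs and mical2b), 24 higher and 24 lower, against 9.27% higher and 8.35% lower without overlap among all tested genes. The genes were selected on these same libraries, so this agreement is not a separate check of the calls. The membrane receptor gene ADIPOR1, the collagen-modifying p3h2 and the cryptochrome cry1a were among those that rose, and ALDH1L1 of folate metabolism, the initiation factor gene eif3eb and the linker histone h1-10 were among those that fell. The adjusted p-values lay close to the threshold, between 0.0252 and 0.05, with 11 under 0.03 and 16 under 0.04. The call rested on every library and on the block: edgeR called 0 genes when any single one of the 6 libraries was left out, with the lowest adjusted p then between 0.0524 and 0.0766, 0 genes without the block, where 2220 genes had an unadjusted p under 0.05, and 0 genes without the 30-day libraries, where 2635 had. DESeq2 on the same 9 libraries called 1194 genes (6.09%), 712 higher (3.63%) and 482 lower (2.46%), and all 51 genes were among them in the same direction. Before adjustment, 1811 genes (9.23%) were higher and 1489 (7.59%) lower at p under 0.05 in edgeR, and the median log2 fold change over all tested genes was 0.02. Counts before adjustment and DESeq2 counts in the lists, pathways and categories below are to be read against these shares over all tested genes.

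Genes are named by the zebrafish symbol where one was matched, and by a capitalised symbol where the name was taken from an orthologue. Among the genes that rose, several act at the membrane or outside the cell. ADIPOR1, annotated in the table as adipor1b, encodes an adiponectin receptor whose relative in the worm Caenorhabditis elegans keeps membranes fluid in the cold. It had 294, 226 and 294 CPM at 18°C /5d, against 108, 100.2 and 65.8 CPM at 28°C. Every library in the cold was above every library at 28°C, a 3.0-fold difference (log2 fold change 1.58 ± 0.23 SE, n = 3 each, edgeR adjusted p = 0.0453). On the per-length scale its mean was 42.7 RPKM at 18°C /5d and 14.3 RPKM at 28°C. The gene plpp2b encodes a phosphatase that removes phosphate from lipid phosphates at the cell surface. It had 72, 62.6 and 49.1 CPM at 18°C /5d, against 21.9, 25.4 and 20.6 CPM at 28°C, and the groups did not overlap (log2 fold change 1.43 ± 0.19 SE, edgeR adjusted p = 0.0446).

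The secreted Wnt inhibitor wif1 had 57.9, 94.5 and 102 CPM at 18°C /5d, against 12.8, 30.6 and 8.91 CPM at 28°C. It was higher in every cold library, and the third pair differed most (log2 fold change 2.44 ± 0.35 SE, edgeR adjusted p = 0.0453). The gene p3h2 encodes a prolyl 3-hydroxylase that modifies collagen chains in the endoplasmic reticulum. It had 25.8, 43.4 and 54.3 CPM at 18°C /5d, against 5.56, 10.1 and 6.83 CPM at 28°C, again without overlap (log2 fold change 2.45 ± 0.26 SE, edgeR adjusted p = 0.0258). The proteoglycan serglycin, srgn, rose 2.73-fold.

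In metabolism, lancl1 was the most abundant of the genes that rose after ADIPOR1. Its product binds glutathione, the main thiol antioxidant of the cell. It had 229, 228 and 207 CPM at 18°C /5d, against 59, 49.1 and 45.7 CPM at 28°C. The replicates of each condition lay close together and far from the other condition, and the difference was 4.33-fold (log2 fold change 2.11 ± 0.20 SE, edgeR adjusted p = 0.0252). The retinoid desaturase cyp27c1, which makes vitamin A2 in zebrafish, had 87.9, 52.6 and 31.9 CPM at 18°C /5d, against 15.8, 12 and 9.16 CPM at 28°C. Levels differed between replicates in the cold, but each was above the highest at 28°C (log2 fold change 2.14 ± 0.22 SE, edgeR adjusted p = 0.0258). Both cyp27c1 and p3h2 belong to the Gene Ontology category of oxidoreductases that act on paired donors. In this category 17 of 79 tested genes were higher and 2 lower at an unadjusted p under 0.05, and its median log2 fold change was 0.37 against 0.02 for all genes.

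Single regulators of transcription or signalling were among the genes that rose, while shox and setd7 were among those that fell. The gene cited4b, whose product binds the coactivators CBP and p300, had 47.3, 47.8 and 50.6 CPM at 18°C /5d, against 14.3 to 19.5 CPM at 28°C, and its replicates varied little (log2 fold change 1.49 ± 0.22 SE, edgeR adjusted p = 0.0492). The zinc finger gene si:dkey-182i3.8 rose 2.7-fold. The unconventional myosin myo7bb rose 2.95-fold, and niban1b, of a family known for its induction in stressed cells, rose 5.31-fold. Among genes with lower counts, rgs4, a GTPase activator that shortens signalling by G protein-coupled receptors, had 12.5, 18.4 and 6.12 CPM at 18°C /5d, against 0.831, 2.03 and 0.208 CPM at 28°C. Its cold libraries were all above those at 28°C, a 14-fold difference (log2 fold change 3.80 ± 0.31 SE, edgeR adjusted p = 0.0252). Further genes that rose from a low level were zte38, ccl19a.1, a chemokine of the CCL19 type, IRAK3, an inhibitor of Toll and interleukin-1 receptor signalling, NPAS4, a PAS domain transcription factor, sybu, which links cargo to kinesin in neurons, NAPB, a SNARE disassembly factor, and ubn1, a subunit of a histone H3.3 chaperone. Their rises ran between 5.07-fold (NPAS4) and 27.5-fold (zte38). The genes zgc:194210 (13.1-fold), si:ch211-237i5.4 (20.8-fold) and mical2b (2.68-fold), for an enzyme that oxidises actin, also rose. Raw counts at 28°C were 2 in each library for ccl19a.1 and si:ch211-237i5.4, so the size of their rise is poorly set.

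**Figure D2:**
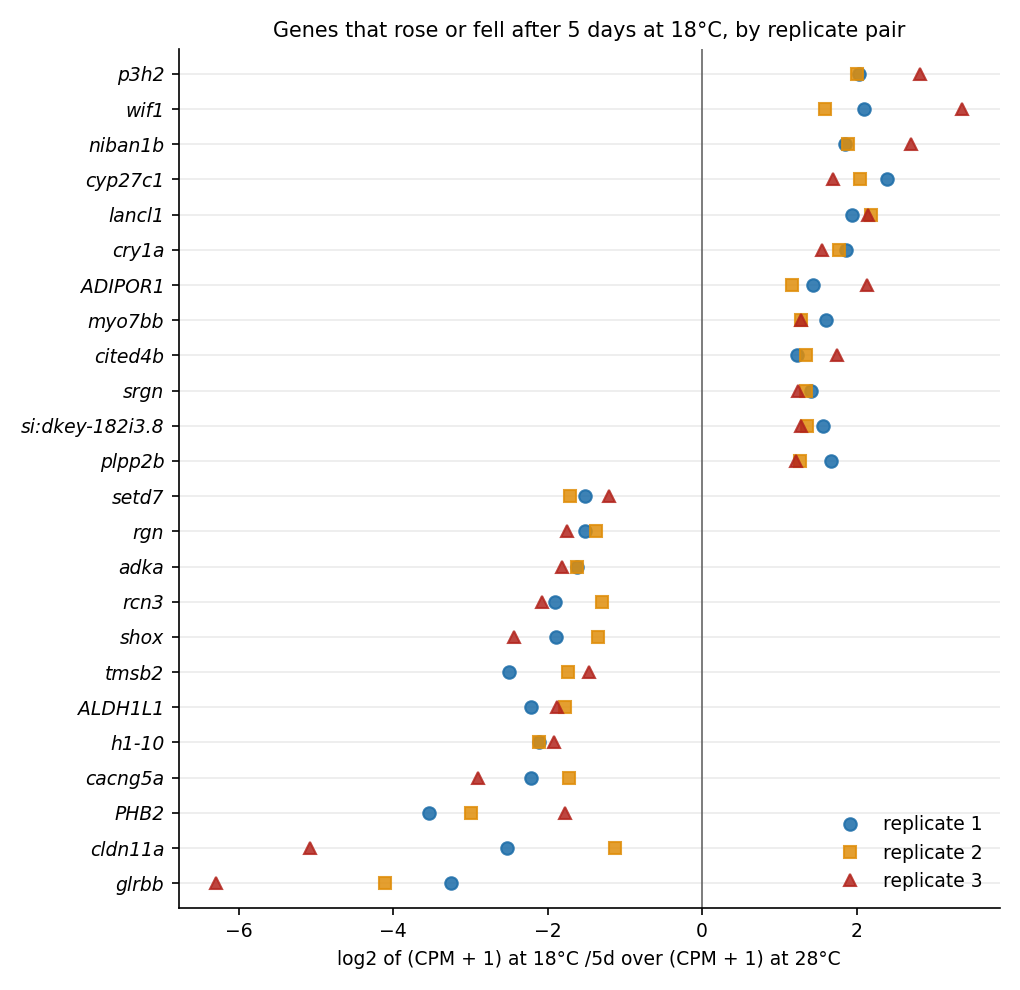
Log2 ratio of (CPM + 1) at 18°C /5d over (CPM + 1) at 28°C (horizontal axis) in each replicate pair for the 12 largest rises and the 12 largest falls among the called genes with a symbol and above median abundance. The 3 points of each gene lie on the same side of 0, and the spread between pairs is widest for glrbb and cldn11a, whose 28°C library of replicate 3 was far above the others.

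The genes that fell included several enzymes around the folate and methionine cycles. ALDH1L1, which encodes 10-formyltetrahydrofolate dehydrogenase and takes formyl groups out of the folate pool, had 32.9, 29.2 and 43.5 CPM at 18°C /5d, against 157, 102 and 163 CPM at 28°C. The groups lay far apart and the fall was 3.98-fold (log2 fold change -1.99 ± 0.19 SE, edgeR adjusted p = 0.0252). A second gene identifier with the same annotation, aldh1l1, fell 4.45-fold at a lower level, with 1.4, 0.987 and 2.31 CPM at 18°C /5d against 7.74, 4.35 and 8.45 CPM at 28°C. Reads may have been split between these near-identical copies, so the pair is not independent evidence. The methionine adenosyltransferase gene mat2aa, whose product makes S-adenosylmethionine, had 91.1, 79.9 and 199 CPM at 18°C /5d, against 292, 235 and 542 CPM at 28°C. Replicate 3 was the highest in both conditions, yet it stayed below every library at 28°C (log2 fold change -1.56 ± 0.22 SE, edgeR adjusted p = 0.0446).

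Next to the methyl donor, adka encodes adenosine kinase, which clears the adenosine left after methyl transfer. It had 8.64, 7.92 and 8.98 CPM at 18°C /5d, against 28.5, 26.4 and 34 CPM at 28°C. The groups were well separated and tight (log2 fold change -1.79 ± 0.19 SE, edgeR adjusted p = 0.0258). The lysine methyltransferase gene setd7, which uses S-adenosylmethionine, had 9.67, 8.58 and 12.2 CPM at 18°C /5d, against 29.6, 30.4 and 29.2 CPM at 28°C, with less spread between replicates than between conditions (log2 fold change -1.56 ± 0.21 SE, edgeR adjusted p = 0.0446). In the whole pathway of the one-carbon pool by folate (ko00670), 1 of 17 tested genes was called lower and 0 higher, 6 were lower and 0 higher at an unadjusted p under 0.05, and the median log2 fold change was -0.42. The median was -0.73 without the 28°C library of replicate 3 and ran between -0.78 and -0.09 when 1 library was left out. The pair medians were -0.80, -0.71 and 0.32, so the pathway as a whole did not move one way in the 3 pairs. Members that did not pass the threshold included aldh1l2, the mitochondrial form of the dehydrogenase (log2 fold change -1.41, edgeR adjusted p = 0.196), mthfs (-2.03, adjusted p = 0.167), shmt2, which moves a carbon from serine to folate (-0.77, adjusted p = 0.266) and mthfd1b (-0.61, adjusted p = 0.19). Folate biosynthesis is a separate pathway (ko00790), and edgeR called 0 of its 13 tested genes. At an unadjusted p under 0.05, 3 were higher and 1 lower, and DESeq2 called 2 higher and 0 lower. Its median log2 fold change was -0.04, and -0.19 to 0.38 when 1 library was left out. With pair medians of -0.21, 0.07 and 0.29, it had no common direction. Of the 22 genes of the DNA methylation machinery, mat2aa was the one called, and 1 was higher and 2 lower before adjustment. The pair medians of this list were -0.26, -0.29 and 0.13.

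**Figure D3:**
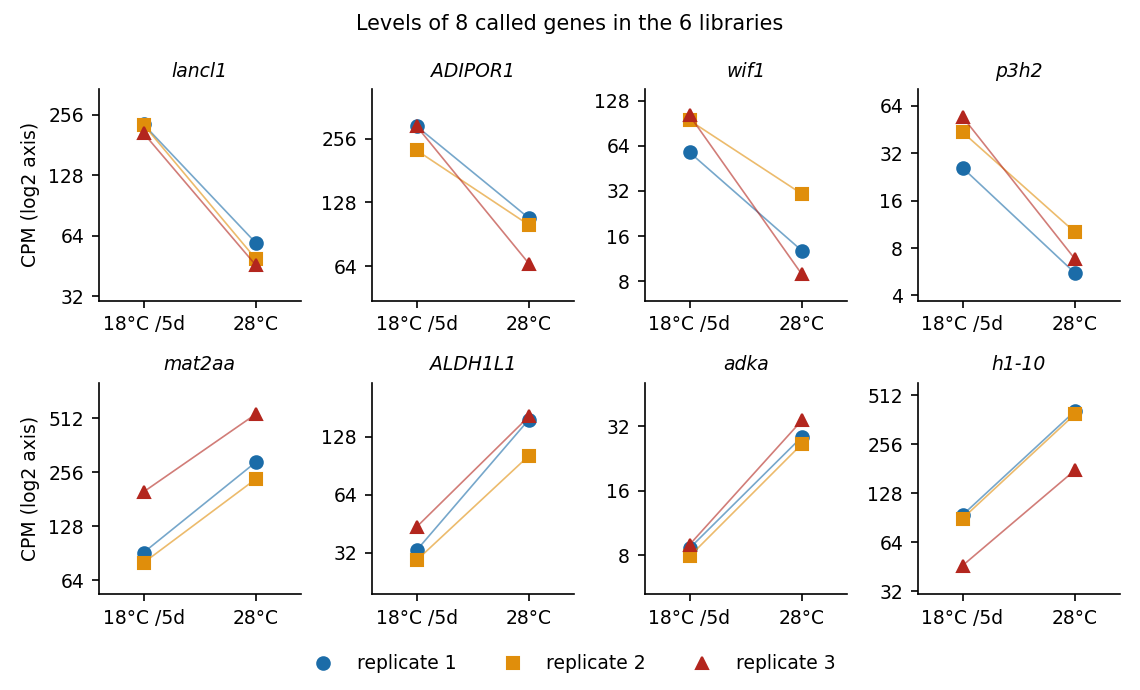
Levels in CPM (log2 axes) of 4 genes that rose (upper row) and 4 that fell (lower row) in the libraries at 18°C /5d (left) and 28°C (right), with lines joining the same replicate number. In each panel the 3 libraries at 18°C /5d lie on one side of the 3 at 28°C, for lancl1 at 207 to 229 CPM against 45.7 to 59 CPM.

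A linker histone and a pair of translation initiation factor genes were also among the genes that fell. The linker histone gene h1-10 had 94, 89.5 and 46 CPM at 18°C /5d, against 408, 390.4 and 177 CPM at 28°C. The third pair was lower in both conditions, and each pair differed by about the same ratio (log2 fold change -2.06 ± 0.28 SE, edgeR adjusted p = 0.0446). A gene annotated in the table as zgc:158450, a translation initiation factor of the 4G type (ENSDARG00000075801), had 120, 83.5 and 108 CPM at 18°C /5d, against 362, 426 and 612 CPM at 28°C. All of its cold libraries were below those at 28°C (log2 fold change -2.14 ± 0.24 SE, edgeR adjusted p = 0.0272). The gene eif3eb, for a subunit of initiation factor 3, had 24.2, 24.9 and 19.3 CPM at 18°C /5d, against 59.4, 70 and 45.6 CPM at 28°C (log2 fold change -1.34 ± 0.18 SE, edgeR adjusted p = 0.0446). Both initiation factor genes are listed in the RNA transport pathway (ko03013), where they were the 2 called genes of 148 tested and the pair medians were -0.41, -0.09 and 0.39. There, ddx39b, an RNA helicase of messenger RNA export, had a log2 fold change of 1.79 (edgeR adjusted p = 0.0563) and pabpc1b, a poly(A)-binding protein, of -1.08 (adjusted p = 0.0888).

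In the endoplasmic reticulum, os9, a lectin that sorts misfolded glycoproteins for degradation, had 94.8, 82.9 and 81.8 CPM at 18°C /5d, against 234, 183 and 233 CPM at 28°C. Its replicates were tight in the cold (log2 fold change -1.32 ± 0.17 SE, edgeR adjusted p = 0.0446). The calcium-binding reticulocalbin gene rcn3 had 12.4, 15.4 and 13.4 CPM at 18°C /5d, against 48.9, 39.5 and 59.7 CPM at 28°C, also without overlap (log2 fold change -1.84 ± 0.23 SE, edgeR adjusted p = 0.0403). The collagen chaperone gene serpinh1b had 491, 348 and 339.6 CPM at 18°C /5d, against 1477, 1579 and 2838 CPM at 28°C. The groups did not overlap, but the difference did not pass the threshold (log2 fold change -2.35 ± 0.37 SE, edgeR adjusted p = 0.0563). In the pathway of protein processing in the endoplasmic reticulum (ko04141), os9 was the only called gene of 171 tested, while 17 were higher and 10 lower before adjustment, shares near the 9.23% and 7.59% over all tested genes, and the pair medians were -0.15, 0.12 and 0.28.

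The genes glrbb and cldn11a had the largest falls among the called genes, and their level differed between replicates at 28°C, as did that of cacng5a. The glycine receptor subunit gene glrbb had 2.88, 0.619 and 3.18 CPM at 18°C /5d, against 35.9, 26.9 and 325 CPM at 28°C. The libraries in the cold were all below those at 28°C, and replicate 3 at 28°C was about an order of magnitude above its fellows (log2 fold change -5.32 ± 0.75 SE, edgeR adjusted p = 0.0453). The tight junction gene cldn11a had 0.317, 0.138 and 0.454 CPM at 18°C /5d, against 6.6, 1.49 and 47.9 CPM at 28°C, with the same library highest (log2 fold change -4.99 ± 0.65 SE, edgeR adjusted p = 0.0446). The calcium channel subunit gene cacng5a had 3.09, 1.01 and 6.49 CPM at 18°C /5d, against 17.9, 5.6 and 54.9 CPM at 28°C. It was lower within each pair, although the groups overlapped because the second pair was low in both conditions (log2 fold change -2.71 ± 0.29 SE, edgeR adjusted p = 0.0258).

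Further genes that fell were PHB2, a prohibitin of the mitochondrial inner membrane, with 3.62, 6.17 and 6.67 CPM at 18°C /5d against 52.7, 55.9 and 25.4 CPM at 28°C (log2 fold change -3.04 ± 0.40 SE, edgeR adjusted p = 0.0446). Each of its cold libraries was below the lowest library at 28°C. The actin monomer-binding thymosin tmsb2 had 34.1, 42 and 29.4 CPM at 18°C /5d, against 198, 141 and 82.4 CPM at 28°C, a 3.86-fold fall. The homeobox gene shox had 42.6, 32.2 and 28.3 CPM at 18°C /5d, against 160.3, 83.5 and 157 CPM at 28°C, a 3.72-fold fall. In both genes every cold library lay below those at 28°C. Regucalcin, rgn, a calcium-binding protein, fell 3.09-fold and the glutamate dehydrogenase gene glud1a 2.58-fold. For glud1a the levels were 94, 86.4 and 75.6 CPM at 18°C /5d and 231, 212 and 217 CPM at 28°C, and the replicates of each condition lay within a narrow band. Genes that fell at a low level were serf2a, mettl27, a member of the methyltransferase-like family, cutc, a copper homeostasis gene, zmat1 and apcs, a pentraxin, by 4.25-fold (zmat1) to 12-fold (serf2a).

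Several aldehyde dehydrogenases, which oxidise aldehydes to acids, were lower in the cold. The mitochondrial aldh2.2 had 28.1, 19.5 and 19 CPM at 18°C /5d, against 63.8, 58.7 and 45.1 CPM at 28°C (log2 fold change -1.34 ± 0.19 SE, edgeR adjusted p = 0.0446). The values of a second aldh2.2 identifier and of the copy aldh2l (ENSDARG00000037094) followed it closely, with falls of 2.61-fold and 2.54-fold, but these near-identical genes can share reads and count as 1 observation. In the category of aldehyde oxidoreductases, 0 of 23 tested genes were higher and 10 were lower at an unadjusted p under 0.05. DESeq2 called 0 higher and 8 lower, and the pair medians were -0.44, -0.38 and -0.86. These counts hold ALDH1L1, described above, and each aldh2 copy separately, so they overstate the number of independent genes. With these copies in it, the category had a median log2 fold change of -0.57. This value was shared with transfer RNA aminoacylation as the lowest of the 254 categories with at least 20 tested genes. Other members of the aldehyde category were aldh6a1 of valine breakdown (log2 fold change -0.95) and aldh2.1 (-0.94). Through the aldh2 copies, fatty acid degradation (ko00071) held 3 called genes, all lower, among 42 tested, with pair medians of -0.27, -0.17 and -0.12. In the same pathway cpt1ab, the transferase that admits fatty acids to mitochondria, had 40.8, 53.9 and 92.1 CPM at 18°C /5d, against 19.2, 22.6 and 17.9 CPM at 28°C, with no overlap and in the other direction (log2 fold change 1.56, edgeR adjusted p = 0.0609).

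Aminoacyl-tRNA synthetases, which charge transfer RNAs with amino acids, had a median below 0 in each of the 3 pairs. Of 45 tested genes (ko00970), edgeR called 0, but 14 were lower and 0 higher at an unadjusted p under 0.05, and DESeq2 called 3 lower and 0 higher. The median log2 fold change was -0.51, with pair medians of -0.90, -0.43 and -0.10, and 26 genes were lower in all pairs. Without the 28°C library of replicate 3 the median was -0.59. The alanyl-tRNA synthetase AARS1, the most abundant of those named, had 555, 595 and 923 CPM at 18°C /5d, against 1485, 1327 and 1331 CPM at 28°C. Its groups did not overlap (log2 fold change -1.02 ± 0.27 SE, edgeR adjusted p = 0.124). The mitochondrial enzymes mars2 (log2 fold change -1.24, adjusted p = 0.0664) and cars2 (-0.88, adjusted p = 0.0992) were on the same side.

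Ribosomal proteins and the proteasome had pair medians of both signs. Of 80 tested ribosomal protein genes (ko03010), edgeR called 0 and DESeq2 called 2 lower, a share near the 2.46% over all tested genes. At an unadjusted p under 0.05, 1 was higher and 4 were lower. A log2 fold change below 0 was found for 71 (88.8%), against 48.4% of all tested genes. The pair medians were -0.74, -0.43 and 0.37, and the median of -0.25 became -0.47 without the 28°C library of replicate 3. It ran between -0.60 and -0.02 when 1 library was left out. Summed, these genes took 60478, 66409 and 58463 CPM at 18°C /5d and 103061, 89895 and 45733 CPM at 28°C, the last being the replicate 3 library described above. The proteasome, the main protease of the cytosol (ko03050), had 1 called gene of 53, psme4a, for the activator PA200, with 9.8, 9.29 and 10.3 CPM at 18°C /5d against 2.7, 2.98 and 3.62 CPM at 28°C. Its replicates were tight in both conditions (log2 fold change 1.67 ± 0.21 SE, edgeR adjusted p = 0.0435), and 2 other identifiers with the same annotation were higher without passing the threshold. The pathway's median log2 fold change was 0.38, but its pair medians were -0.29, 0.39 and 0.83, and the median was 0.09 without the 28°C library of replicate 3. Oxidative phosphorylation (ko00190) had 0 called genes of 131 and pair medians of -0.46, -0.31 and 0.27. Within it the mitochondrially encoded MT-CYB had 600, 973 and 422 CPM at 18°C /5d, against 1553, 1871 and 1863 CPM at 28°C, with no overlap (log2 fold change -1.51, edgeR adjusted p = 0.0615).

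**Figure D4:**
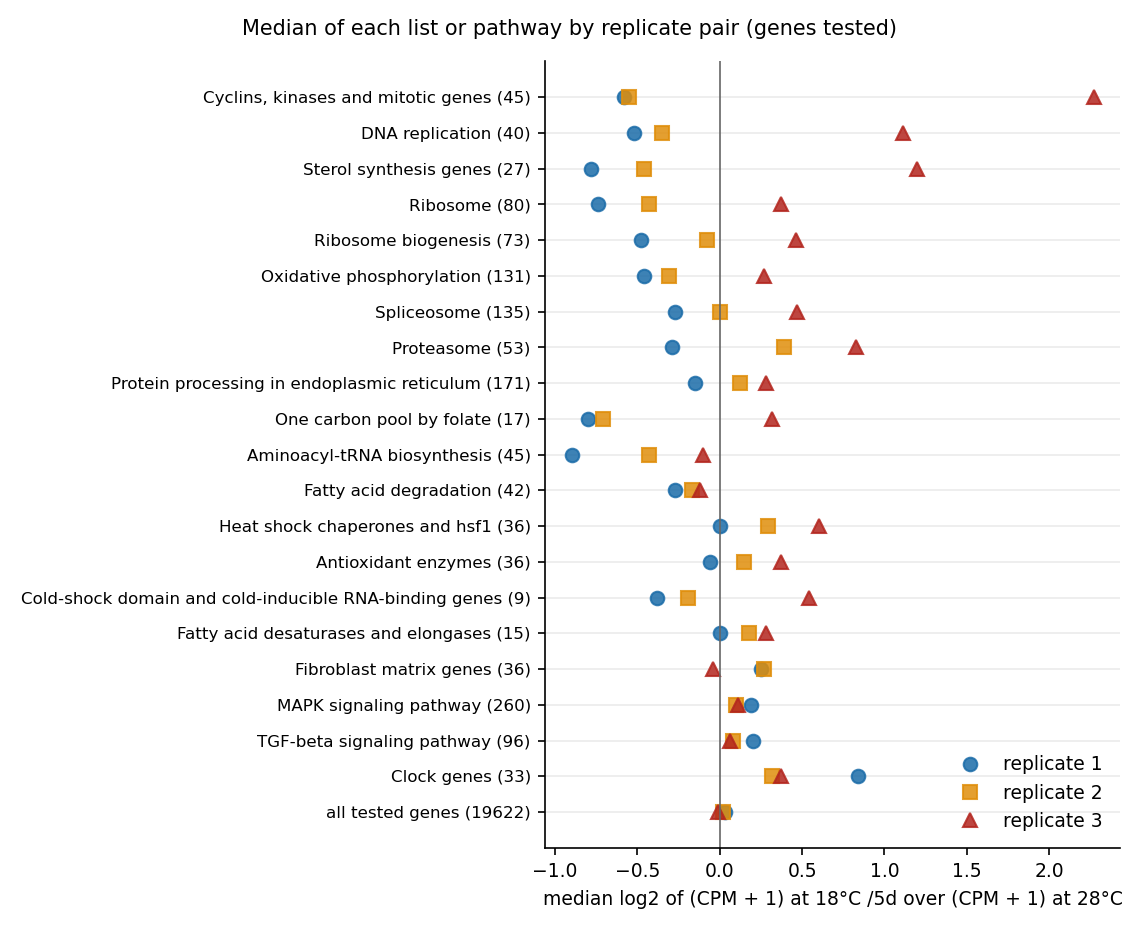
Median log2 ratio of (CPM + 1) at 18°C /5d over (CPM + 1) at 28°C (horizontal axis) for 20 lists and pathways and for all tested genes, in each replicate pair, with the number of genes tested in brackets. Pairs 1 and 2 lie below 0 and pair 3 above 0 for cyclins, sterol synthesis, ribosome and the one-carbon pool, while aminoacyl-tRNA biosynthesis lies below 0 and clock genes above 0 in the 3 pairs.

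The genes of the circadian clock, a feedback loop of transcription factors, had a median above 0 in each of the 3 pairs. Of 33 tested, cry1a was called higher, 12 were higher and 2 lower at an unadjusted p under 0.05, and DESeq2 called 7 higher and 2 lower. The median log2 fold change was 0.42 and the pair medians were 0.84, 0.32 and 0.37. The median was 0.72 without the 28°C library of replicate 3, and 0.26 to 0.74 when 1 library was left out. Without overlap, 4 genes were higher and 2 lower, against 9.27% and 8.35% over all tested genes. In the mammalian circadian pathway (ko04710), 4 of 30 tested genes were higher and 5 lower without overlap. Its median was 0.29, with pair medians of 0.14, 0.18 and 0.18. The fly pathway (ko04711) had 1 of 15 higher and 0 lower without overlap, and a median of 0.71. The cryptochrome cry1a, a light-inducible repressor of the clock in zebrafish, had 84.4, 47 and 91 CPM at 18°C /5d, against 22.4, 13 and 30.3 CPM at 28°C. The libraries of the second replicate were the lowest in both conditions, and the groups did not overlap (log2 fold change 1.78 ± 0.24 SE, edgeR adjusted p = 0.0446). The related flavoprotein gene cry-dash, a photolyase of single-stranded DNA, rose 4.0-fold, with 8.06, 11.9 and 16.8 CPM at 18°C /5d against 2.23, 2.22 and 4.87 CPM at 28°C.

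Other clock genes differed without passing the threshold, and not all in 1 direction. The cryptochrome cry3a had 13.3, 7.23 and 18.1 CPM at 18°C /5d, against 33.1, 35.2 and 46.7 CPM at 28°C (log2 fold change -1.68, edgeR adjusted p = 0.0609). It lay lower in each cold library, opposite to cry1a. The nuclear receptor gene rorab, an activator of bmal1 genes, had a log2 fold change of -1.49 (adjusted p = 0.109), and npas2, a partner of Bmal1, of 2.24 (adjusted p = 0.0962). The activators bmal1a, with 47.9, 47.1 and 44.5 CPM at 18°C /5d against 52.9, 36.4 and 49.9 CPM at 28°C, and clockb had overlapping groups. The period gene per3 had 28.8, 16.6 and 41.9 CPM at 18°C /5d, against 0.961, 3.24 and 31.7 CPM at 28°C, so that libraries at 28°C differed more among themselves than the conditions did (log2 fold change 2.19, edgeR adjusted p = 0.21). Since the hour of collection is not given, the part of such differences between libraries in the clock values was not tested.

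**Figure D5:**
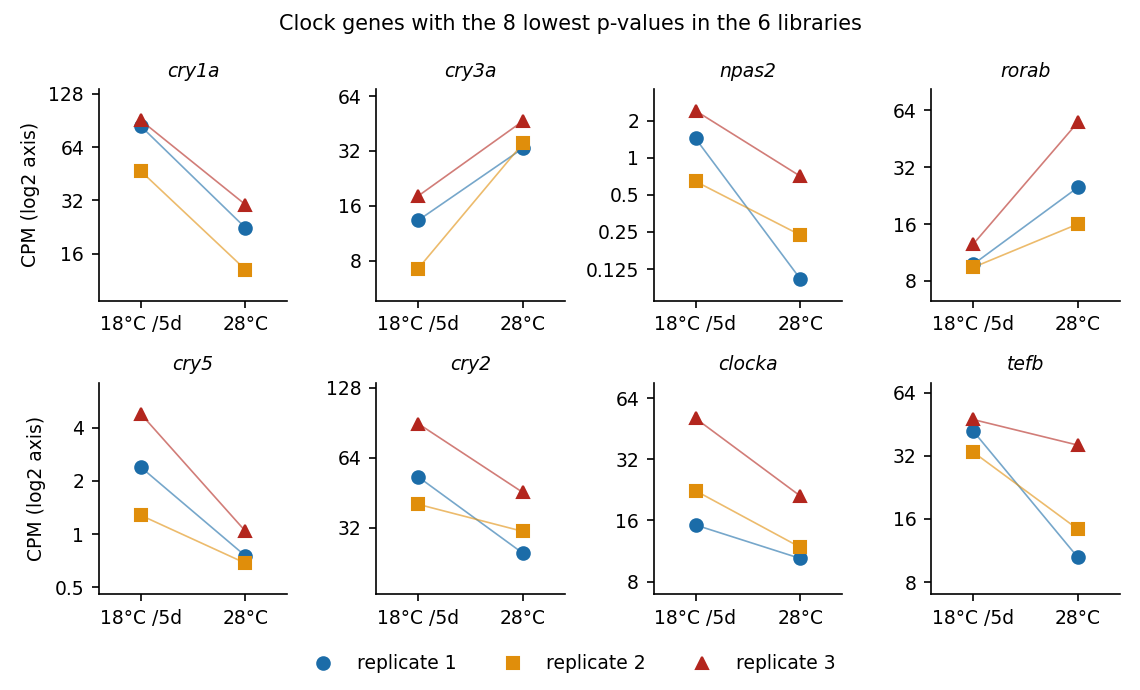
Levels in CPM (log2 axes) of the 8 clock genes with the lowest p-values in the libraries at 18°C /5d (left) and 28°C (right), with lines joining the same replicate number. Only cry1a passed the adjusted threshold, and cry3a and rorab run in the opposite direction to the 6 others.

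Classes known for their response to temperature were measured next. Of 36 tested heat shock chaperone genes and hsf1, edgeR called 0, DESeq2 called 3 higher and 1 lower, and 10 were higher and 1 lower at an unadjusted p under 0.05. The median log2 fold change was 0.29, and it was 0.12 without the 28°C library of replicate 3. The inducible chaperone hsp70.1 had 93.5, 51.4 and 308 CPM at 18°C /5d, against 23.3, 23.6 and 11.8 CPM at 28°C. It was higher in every cold library, most of all in replicate 3, but with a wide error (log2 fold change 2.78 ± 0.83 SE, edgeR adjusted p = 0.164), and its near-identical copies hsp70.3 and hsp70l can share its reads. The cytosolic chaperone hsp90aa1.2 had a log2 fold change of 1.49 (adjusted p = 0.113).

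The cold-inducible RNA-binding genes did not pass the threshold either. The more abundant one, cirbpb, had 3076, 3493 and 2817 CPM at 18°C /5d, against 2734, 2260 and 713 CPM at 28°C (log2 fold change 0.88 ± 0.36 SE, edgeR adjusted p = 0.267). Its groups did not overlap, yet the first pair differed little. For cirbpa the values were 1119, 1528 and 1323 CPM at 18°C /5d and 972, 969 and 569 CPM at 28°C (log2 fold change 0.69 ± 0.25 SE, adjusted p = 0.215). The groups of cirbpa did not overlap either. The list of 9 tested genes had 4 higher and 3 lower before adjustment. Without overlap, 4 were higher and 0 lower, against 9.27% and 8.35% over all tested genes, and DESeq2 called 1 higher and 0 lower. The pair medians of the list were -0.38, -0.19 and 0.54, and its median of 0.09 became -0.14 without the 28°C library of replicate 3.

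Lipid genes gave no common direction. The list of 15 fatty acid desaturases and elongases had 0 called genes, 1 higher and 1 lower at an unadjusted p under 0.05, and a median of 0.25, which was 0.04 without the 28°C library of replicate 3. The pair medians were 0.00, 0.18 and 0.28. The stearoyl-CoA desaturase gene, SCD, which introduces the first double bond into saturated fatty acids, had 943, 501 and 639 CPM at 18°C /5d, against 1293, 316 and 98.2 CPM at 28°C. Its groups overlapped and the first pair went the other way (log2 fold change 0.65, edgeR adjusted p = 0.672). Of 27 tested sterol synthesis genes, 0 were called by edgeR, 1 was called lower by DESeq2, and 0 were higher and 1 lower at an unadjusted p under 0.05. That gene, dhcr7, encodes the enzyme of the last step to cholesterol and had 33.9, 38.4 and 40.8 CPM at 18°C /5d, against 195, 143 and 66.3 CPM at 28°C. It was lower in each pair without passing the threshold (log2 fold change -1.77, edgeR adjusted p = 0.0823), and the list's pair medians were -0.78, -0.46 and 1.2. Its median was -0.15, and -0.63 without the 28°C library of replicate 3.

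Antioxidant enzymes lay on both sides of 0. Of 36 tested, edgeR called 0 and DESeq2 called 3 higher and 4 lower. The median was 0.21, and 0.10 without the 28°C library of replicate 3. The glutathione peroxidase gene gpx1a had 128, 73.7 and 108 CPM at 18°C /5d, against 50.6, 43.2 and 60.6 CPM at 28°C (log2 fold change 0.98, edgeR adjusted p = 0.102), and catalase, cat, had 70.5, 52.4 and 46.5 CPM at 18°C /5d, against 120.2, 74.8 and 87.4 CPM at 28°C (log2 fold change -0.73, adjusted p = 0.109). The peroxidase was thus higher in each cold library and catalase lower. The gene prdx1, a peroxiredoxin, had a log2 fold change of 2.01 (adjusted p = 0.162) and gpx8 of -1.09 (adjusted p = 0.101).

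Cyclins, kinases and mitotic genes, 45 of them tested, had 0 genes called by edgeR and 0 by DESeq2, and 1 lower at an unadjusted p under 0.05. Their pair medians were -0.58, -0.55 and 2.27, and the median of the fit, 0.13, became -0.56 without the 28°C library of replicate 3. The cyclin gene ccnb1 shows the pattern, with 141, 70.5 and 84.7 CPM at 18°C /5d against 294, 150.2 and 1.79 CPM at 28°C. No direction can thus be given for the cell cycle list over the 3 pairs.

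Secreted ligands and matrix genes held differences that did not pass the threshold. In the growth factor category, 17 of 53 tested genes were higher and 2 lower at an unadjusted p under 0.05, DESeq2 called 6 higher and 1 lower, and the pair medians were 0.30, 0.16 and 0.13. Without overlap, 13 of the 53 were higher and 2 lower, against 9.27% and 8.35% over all tested genes. Over all tested genes 9.23% were higher and 7.59% lower before adjustment, which is the background for the pathway counts here too. The activin subunit gene inhbb had 96.1, 89 and 38.2 CPM at 18°C /5d, against 14.9, 24 and 16.5 CPM at 28°C (log2 fold change 1.89 ± 0.30 SE, edgeR adjusted p = 0.0563). For tgfb1a the values were 52.2, 64.4 and 241 CPM at 18°C /5d and 25.9, 22.6 and 54.4 CPM at 28°C (log2 fold change 1.55 ± 0.26 SE, adjusted p = 0.0609). Both were higher in each pair. In the TGF-beta pathway (ko04350), which holds both, 19 of 96 tested genes were higher and 4 lower before adjustment, with 0 called by edgeR and pair medians of 0.20, 0.08 and 0.06. There, 11 of the 96 were higher and 4 lower without overlap. In the MAPK pathway (ko04010), 38 of 260 were higher and 18 lower before adjustment with pair medians of 0.19, 0.10 and 0.11, cacng5a was the only called gene, and jun, a subunit of the AP-1 transcription factor, had 85.4, 80.7 and 31.3 CPM at 18°C /5d against 275, 202 and 479 CPM at 28°C (log2 fold change -2.34, edgeR adjusted p = 0.0823).

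Among matrix genes, 0 of 36 were called and 11 were higher and 5 lower before adjustment. Without overlap, only 4 were higher and 2 lower, against 9.27% and 8.35% over all tested genes. The median was 0.20, with 0.39 without the 28°C library of replicate 3 and 0.09 to 0.39 when 1 library was left out. The pair medians were 0.25, 0.27 and -0.04. The gelatinase gene mmp9 had 678, 417 and 805 CPM at 18°C /5d, against 332, 119 and 129 CPM at 28°C (log2 fold change 1.81 ± 0.32 SE, edgeR adjusted p = 0.0615), and tenascin C, TNC, had a log2 fold change of 1.31 (adjusted p = 0.0823). The matrix collagen genes col6a3 (-1.25, adjusted p = 0.123) and col1a1b (-0.69, adjusted p = 0.201) lay on the other side. In the complement and coagulation pathway (ko04610), 13 of 45 tested genes were higher and 3 lower before adjustment, though several of these are near-identical receptor genes that can share reads.

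Transporters were more often higher than lower before adjustment. In the transporter category, 34 of 157 tested genes were higher and 6 lower at an unadjusted p under 0.05, and DESeq2 called 14 higher and 2 lower. The shares before adjustment over all tested genes were 9.23% higher and 7.59% lower. The anion exchanger gene slc4a2a had 120, 142 and 153 CPM at 18°C /5d, against 44.3, 60 and 64.9 CPM at 28°C, without overlap (log2 fold change 1.30, edgeR adjusted p = 0.059). Of 43 ABC transporter genes (ko02010), 10 were higher and 1 lower, the pair medians were 0.47, 0.26 and 0.42, and abca1b, a cholesterol exporter, had 38.5, 46.7 and 51.7 CPM at 18°C /5d against 18.4, 14.5 and 13.9 CPM at 28°C (log2 fold change 1.54, adjusted p = 0.088). Both genes were higher in each cold library.

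Over all categories of the table, 221 pathways with at least 10 tested genes had medians between -0.69 and 0.71. The 3 pair medians were above 0 in 52 of these pathways, below 0 in 27 and of different sign in 142, including 42 in which pairs 1 and 2 were below 0 and pair 3 above. For the 254 Gene Ontology categories the medians lay between -0.57 and 0.78, with 55 above 0 in the 3 pairs, 19 below and 180 of different sign.

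The values at 18°C /30d were set beside those at 18°C /5d; both are compared with the same 28°C libraries. All 51 genes called at 18°C /5d had the same sign at 18°C /30d, and 49 of them were also called there. In all, 297 of the 19622 tested genes were called at 18°C /30d. The 51 genes were selected on the same 28°C libraries, so this agreement is not a separate check. In the direct comparison of 18°C /30d with 18°C /5d, edgeR called 0 genes, and the lowest adjusted p of the 51 genes was 0.591. An unadjusted p under 0.05 was found for 496 of the 19622 genes, fewer than that threshold gives where nothing differs. The mean of rgs4 was 55.7 ± 34.5 CPM at 18°C /30d and 12.3 ± 6.15 CPM at 18°C /5d, against 1.02 ± 0.927 CPM at 28°C (SD, n = 3 each). For cyp27c1 the means were 108 ± 39.3 CPM at 18°C /30d and 57.5 ± 28.3 CPM at 18°C /5d, against 12.3 ± 3.33 CPM at 28°C. For adka they were 8.9 ± 0.975 CPM at 18°C /30d and 8.51 ± 0.545 CPM at 18°C /5d, against 29.6 ± 3.88 CPM at 28°C, so that its low level was nearly the same at both times in the cold.

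Methylated DNA immunoprecipitation sequencing (MeDIP-seq) of the same conditions, with 1 library per condition from 3 pooled cultures, gave a second readout of the called genes at their promoters. Coordinates are those of the Zv9 (danRer7) build. Of the genes that rose, 6 had 7 promoter peaks, with a median log2 ratio of (RPM + 1), the library-scaled reads on a peak, at 18°C /5d over 28°C of -0.34, and of the genes that fell, 6 had 6 peaks, with a median of -0.88. Over 6954 promoter peaks of 5525 tested genes the median was -0.05 and 52.8% of peaks were below 0. A peak at the promoter of adka (chr13:25425916-25426712) held 0 reads at 18°C /5d and 12 at 28°C, and a peak at shox (chr9:35609417-35610399) held 0 reads at 18°C /5d and 17 at 28°C. Both of these genes fell in RNA. A peak at plpp2b (chr22:21870611-21871143), which rose, held 0 reads at 18°C /5d and 35 at 28°C, and a peak at rgs4 (chr6:34386039-34386808), which also rose, held 16 reads at 18°C /5d and 0 at 28°C. A count of 0 leaves room for up to 3 reads by counting error alone. With single libraries and few reads these peaks have no replicate check. Below 0 lay 6 of the 7 peaks of genes that rose and 5 of the 6 peaks of genes that fell.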

How the data were processed

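RNA-seq was done on 3 libraries per condition and MeDIP-seq on 1 pooled library per condition. The authors deposited raw counts per Ensembl gene and RPKM values for the RNA libraries. The aligner, annotation release and strand setting of the RNA-seq are not given in the sources used here, so reads of overlapping or antisense genes cannot be told apart. Of the other columns of the table, 9 holding further per-sample values and those with the authors' own ratios and p-values were not used. For MeDIP-seq, the authors used Bowtie2 on the Zv9 build (danRer7), MACS for peaks and bedtools to merge them, and deposited counts and RPM per peak.

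Counts were tested with edgeR 4.0.16 in R 4.3.3 (TMM normalization, filterByExpr, quasi-likelihood F-test, Benjamini-Hochberg adjustment over 19622 genes), with the 9 RNA libraries in one fit and the replicate number as a block. The block was set by the way the comparison was defined. It was checked on the counts after removal of condition means. The 9 pairs of libraries with the same number had correlations of 0.266 to 0.672 (mean 0.476). The 18 other pairs had -0.699 to 0.513 (mean -0.212), and removing the means by itself pushes these below 0. Replicate 3 was distinct, but replicates 1 and 2 were not cleanly paired. Replicate 1 at 28°C had 0.266 with replicate 1 and 0.513 with replicate 2 at 18°C /30d, but 0.378 and 0.228 at 18°C /5d. Separate cultures are given only by the word biological in the labels, so p-values measure the spread between these libraries. CPM used TMM library sizes, and pair ratios a pseudocount of 1 CPM. The median biological coefficient of variation was 29.2%. On simulated data with this spread, 4 of 100 genes changed 2-fold and 60 of 100 changed 4-fold were called, with 9 others.

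The gene lists, pathways and tests were chosen with earlier results of these data known. Genes named are the 12 largest rises and 12 largest falls among called genes that moved the same way in the 3 pairs, lay above the median abundance and had a symbol, up to 6 members with the lowest p per list or pathway described, and markers above 1 CPM. Other called genes and other list members were named after their values were seen. Lists were described by counts and medians only. Symbols were found for 23877 of 32677 genes, 12617 from a current gene name table and 11260 from the best database hit in the deposited table. Alternatives were DESeq2 1.42.0, upper-quartile and RLE scaling, no filter, no block, only the 6 libraries compared, a minimum of 2-fold, and leaving out each library or replicate number. A planned search for promoter motifs was not run, because no promoter sequence was used here.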

Additional observations from a re-analysis of the deposited data

How the results depend on the processing

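The count of 51 called genes (25 higher, 26 lower) was within 1.5 times under upper-quartile scaling (48) and RLE size factors (53). A minimum of 2-fold left it at 51, but it could remove no call, since the smallest change of a called gene was 2.5-fold. No called gene changed sign under any alternative run. DESeq2 called 1194 genes (712 higher, 482 lower). Without the filter on low counts 172 of 26392 genes were called (98 higher, 74 lower). The other alternatives brought the count to 0, with edgeR in each case. Without the replicate block, 0 genes were called (1210 higher and 1010 lower at an unadjusted p under 0.05), and with only the 6 libraries compared 0 were called with the replicate block (lowest adjusted p = 0.186, 2635 genes at an unadjusted p under 0.05) and 0 without it (0.28, 1894 genes). Leaving out 1 of the 6 libraries or all libraries of 1 replicate number gave 0 called genes, 0 higher and 0 lower, in each case, with 1956 to 3289 genes at an unadjusted p under 0.05. DESeq2 was not run on these subsets. The causes were not tested.

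Of 66 list and pathway medians, 27 kept their sign when each of the 6 libraries was left out in turn, and 39 changed it at least once. For cyclins and mitotic genes the median ran between -0.56 and 0.81, and for aminoacyl-tRNA biosynthesis between -0.85 and -0.33. With a pseudocount of 0.1 RPM the median promoter peak ratio was -0.39 for genes that rose and -2.26 for genes that fell. Over peaks with reads in both libraries it was -0.26 (4 peaks) and -0.15 (3 peaks). Depth limits the genes of low level, such as mettl27 and serf2a. In the simulation, where few genes were changed, 4 of 100 genes changed 2-fold were called. The 9 genes simulated without a change that were called as well bound the trust in single calls.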
